A study of Mus musculus with 12 samples.

Results

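The genes described here are 8 members of the immediate early response (Fos, Fosb, Jun, Junb, Egr1, Egr2, Atf3 and Ier2) together with Myc and its paralogue Mycn. They were chosen by name, with earlier results of these data known. Every probe whose accession belongs to one of them was taken, which gave 10 genes and 14 probes among 41174 probes on the array. All 10 genes passed the filter on dim probes, as did 20875 genes in all, and 9 of the 10 were above background on every array. Total RNA of mouse embryonic stem cells (mESC), of cells at day 9 and of cells at day 14 of cardiomyocyte differentiation was read on 1-colour Agilent arrays (4 arrays in each group). The cells grew, per the labels, on plates coated with crosslinked ELP, first without LIF (the cytokine that keeps mouse stem cells undifferentiated) for 2 days and then in GMEM with 2.5% serum replacement for 12 days. This growth text, with its 12 days, is repeated for the day 9 and the mESC samples, so their own days in each medium are not given. Every sample is labelled as embryonic stem cells, with no strain, cell line or genetic change named. The labels do not say whether the 4 samples of a group were separate cultures, and the p-values therefore reflect no more than the spread among those 4, which may be technical.

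Immediate early genes are switched on within minutes of a growth factor, serum, stretch or stress signal, without new protein synthesis, and their mRNAs are short-lived. FOS and JUN family proteins pair through leucine zippers to form AP-1, which binds the sequence TGACTCA and regulates genes of matrix remodelling, migration and proliferation. EGR proteins are zinc finger factors downstream of ERK signalling, and MYC and MYCN pair with MAX at E-boxes and raise ribosome production and cell growth. In mouse embryonic stem cells, LIF signalling through STAT3 maintains Myc, and Mycn is expressed beside it.

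Promoter windows, from 250 bases before to 50 bases after an annotated start, were given by RefSeq (GRCm38.p6) for 7 of the 10 genes in 11 windows. For Fos and Jun the 250 bases before the start are shown. They were picked because Jun was called at day 9 and Fos, its AP-1 partner, only at day 14. Short stretches of Egr2, Fosb and Atf3 are shown around the letters found by a search. Capitals mark the match in each. Fos is at chr12:85473640-85473889 on the plus strand, Jun at chr4:95052223-95052472 on the minus strand, the Egr2 stretches at chr10:67537484-67537513 and chr10:67537787-67537816 on the plus strand, Fosb at chr7:19310076-19310105 on the minus strand and Atf3 at chr1:191183324-191183353 on the minus strand.
Fos: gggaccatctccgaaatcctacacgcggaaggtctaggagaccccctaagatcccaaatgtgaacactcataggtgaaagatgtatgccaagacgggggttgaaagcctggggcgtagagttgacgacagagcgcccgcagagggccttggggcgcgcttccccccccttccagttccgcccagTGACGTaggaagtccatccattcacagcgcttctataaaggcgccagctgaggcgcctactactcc
Jun: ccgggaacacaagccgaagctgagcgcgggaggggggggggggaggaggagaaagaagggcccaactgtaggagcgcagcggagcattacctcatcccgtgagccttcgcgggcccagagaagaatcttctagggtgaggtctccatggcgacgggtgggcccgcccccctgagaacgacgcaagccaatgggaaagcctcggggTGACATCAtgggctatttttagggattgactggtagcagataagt
Egr2, upstream stretch: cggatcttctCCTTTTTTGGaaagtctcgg
Egr2, downstream stretch: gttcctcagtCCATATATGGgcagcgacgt
Fosb: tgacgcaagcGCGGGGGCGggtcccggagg
Atf3: attaatagcattACGTCAgcctgggattgg

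The search covered both strands for 6 sets of letters: the AP-1 site TGACTCA, the cyclic AMP response element core TGACGT, the AP-1-like site TGACATCA, the E-box CACGTG, the EGR site GCGGGGGCG and the CArG box, which is bound by serum response factor. Among all 32851 windows of this length in the table, these were found in 5.2%, 7.51%, 3.62%, 7.15%, 2.91% and 1.63% of windows. Fos held the cyclic AMP response element core with its first base at -66 from the start, and Jun held the AP-1-like site at -45. Egr2 held a CArG box in windows of separate starts, at -72 in each of the stretches shown, and the reverse complement of the cyclic AMP response element core at -56 from the start of the downstream stretch. Fosb held the EGR site at -50, and Atf3 the reverse complement of the cyclic AMP response element core at -8. A further Egr2 start had an E-box at -27. Junb and Mycn had none of the 6 sets of letters in their windows. These matches are descriptions of the letters and say nothing of binding in these cells.

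The arrays were similar in quality. Their 75th percentile of processed signal lay between 346.8 and 386.4 for mESC, 394.9 and 438.5 for day 9 and 462.7 and 507.9 for day 14. From 59.5% to 67.9% of probes were well above background, arrays of a group correlated at 0.9893 or higher, and arrays of different groups at 0.797 to 0.9569. Each group was hybridised on 1 slide of its own and scanned with it, so an effect of the slide or scan cannot be told apart from that of the group. The 8 stem cell markers, summed as linear levels relative to the array's 75th percentile, reached 614.7 to 659.7 in mESC, 17.21 to 25.54 at day 9 and 13.89 to 14.92 at day 14, although the label of all samples is embryonic stem cells. The 8 cardiomyocyte markers, among them Myh6, Tnnt2 and Actc1, summed to 4.39 to 5.023, 163.8 to 308.8 and 167.5 to 219.2, and all 8 were called higher at both days than in mESC. The 8 fibroblast markers summed to 2.491 to 2.621 in mESC and 236.1 to 417.0 at day 9, with 7 called higher and 1 lower. At day 9 all 7 tested endoderm and liver markers were called higher, and of 5 endothelial markers 4 were higher and 1 lower. Of 10 macrophage markers 2 were higher and 1 lower. Several markers called higher at day 9 were above background on no mESC array, so they were tested only through the later groups. They were Col3a1, Dcn, Lum, Postn (fibroblast), Afp, Apoa1, Ttr, Fgb (endoderm and liver), Cdh5, Emcn (endothelial), Csf1r and Tyrobp (macrophage). The part of these cell types in the changes of the 10 genes was not tested.

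Values below are log2 signals minus the array's 75th percentile, so 0 is the level of a probe at that percentile. A gene was called where limma's adjusted p over all 20875 genes was below 0.05 and the log2 change was at least 1. By this rule, Jun, Egr1, Egr2 and Myc rose by day 9, so that 4 of 10 genes were called and all were higher, beside 41.0% of all genes called in either direction, 20.1% higher and 21.0% lower. By day 14, Fos and Junb had risen as well and Mycn had fallen, which made 6 higher and 1 lower. Of all genes, 46.8% were called in that comparison, 22.8% higher and 24.0% lower. Between day 9 and day 14, Fos, Egr1 and Egr2 rose and none of the 10 fell, beside 13.8% of all genes called, 10.2% higher and 3.60% lower. Fosb, Atf3 and Ier2 were called in no comparison by limma. Whatever the size of the change, 4 of the 10 genes were lower at an unadjusted limma p below 0.05 in each comparison, and 6, 6 and 5 were higher. Most of all genes also pass when no minimum change is asked. At an adjusted limma p below 0.05 alone, 7588, 7705 and 5318 of the 20875 genes were higher and 9810, 10059 and 7905 lower. Counts at an unadjusted p in the lists below stand beside these numbers too. The median log2 change over the 10 genes was 0.80, 2.09 and 0.04 in the 3 comparisons, against -0.16, -0.19 and -0.09 over all genes. The arrays of the 2 groups did not overlap for 9, 10 and 8 of the 10 genes, beside 78.6%, 83.9% and 57.4% of all genes. The split of calls over all genes moved with the scaling. At day 14 it was 4758 higher and 5014 lower, against 3996 and 6975 with median scaling and 6005 and 3302 with no scaling. From day 9 to day 14 it was 2127 higher and 752 lower, against 1747 and 1217 with median scaling and 2580 and 477 with no scaling.

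**Figure D1:**
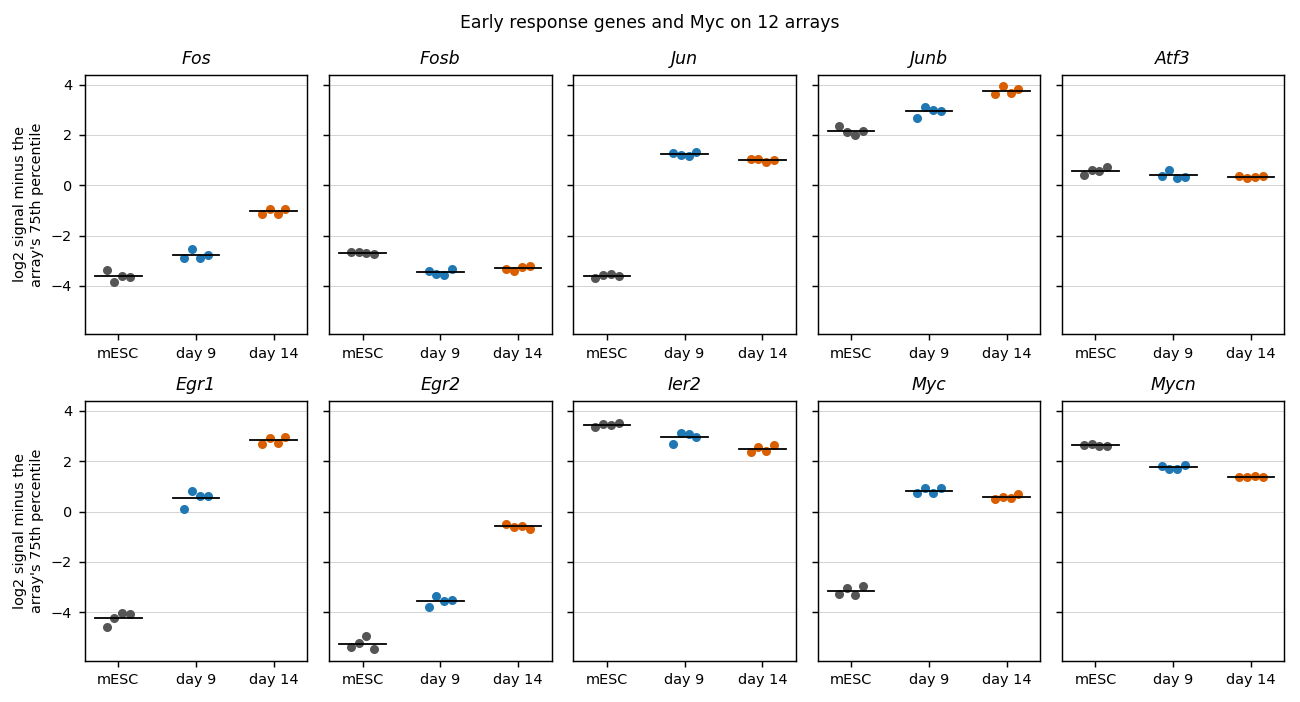
Log2 processed signal minus the array's 75th percentile (y axis) for each of the 10 genes on the 4 arrays of mESC, day 9 and day 14 (points; lines are group means), 1 probe per gene. Jun and Myc stepped up by day 9 and stayed near that level, Egr1, Egr2 and Fos were highest at day 14, and Mycn was lowest at day 14.

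Fos, the inducible AP-1 partner that cannot pair with itself, was at -3.37, -3.83, -3.62 and -3.66 on the mESC arrays. It was at -2.91, -2.52, -2.89 and -2.78 on the day 9 arrays and at -1.13, -0.93, -1.14 and -0.96 on the day 14 arrays. The 3 groups did not overlap, and they stood in the order mESC, day 9, day 14. The difference of day 9 from mESC, 0.84 ± 0.11 (SE, n = 4 each), was below the size needed for a call, with an adjusted p of 2.01e-05 by limma. It reached 1.04 and was called with no scaling between arrays. By day 14 Fos had risen by 2.58 ± 0.11 over mESC, a fold of 5.97 (adjusted p = 7.16e-10 by limma), and with normexp background correction, which adds a constant of 50 to each signal, the rise was 1.43. The rise from day 9 to day 14 was 1.73 ± 0.11, a fold of 3.33 (adjusted p = 1.73e-07 by limma). Fos had 10 spots of its probe on each array, all kept mESC spots were above background, and their SD within an array was 0.10 to 0.26 in mESC and 0.04 to 0.08 at day 14.

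Fosb, the FOS relative with the same zipper, went the other way in sign. Its log2 values were -2.66, -2.66, -2.71 and -2.73 in mESC, -3.42, -3.51, -3.55 and -3.31 at day 9, and -3.33, -3.39, -3.24 and -3.21 at day 14. Every mESC array was above every day 9 and day 14 array, while the last 2 groups overlapped. The differences from mESC were -0.76 ± 0.06 at day 9 (95% interval -0.89 to -0.62) and -0.60 ± 0.06 at day 14 (-0.74 to -0.47), smaller than the change needed for a call. Between the days the difference was 0.15 (0.02 to 0.29), and it turned to -0.03 with quantile normalization and -0.04 with median scaling.

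Jun, the AP-1 subunit that pairs with FOS proteins and with itself, showed the largest change of the 10 genes at day 9. Its mESC arrays lay at -3.67, -3.58, -3.52 and -3.60. On day 9 arrays it stood at 1.30, 1.21, 1.18 and 1.32, and on day 14 arrays at 1.03, 1.06, 0.92 and 0.99. The rise by day 9 was 4.85 ± 0.05 (SE, n = 4 each), a fold of 28.8 (adjusted p = 1.86e-14 by limma), and 502 of the 20875 genes rose by more. By day 14 it was 4.59 ± 0.05, a fold of 24.1. With normexp correction both rises were smaller, at 3.29 and 3, and still called. The day 14 arrays were all below the day 9 arrays, by 0.25 on average (95% interval for day 14 minus day 9, -0.36 to -0.15), and this was not called. The 10 Jun spots had an SD of 0.11 to 0.25 within an mESC array and 0.04 to 0.12 within a later array.

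Junb, which can restrain JUN at some promoters and stand in for it at others, was read by a pair of probes. The probe with the higher mean over the 12 arrays, which was the dimmer of the pair in mESC, gave 2.37, 2.11, 2.00 and 2.15 in mESC, 2.67, 3.12, 2.98 and 2.97 at day 9 and 3.64, 3.93, 3.65 and 3.83 at day 14. The groups did not overlap and stood in the order mESC, day 9, day 14. On this probe Junb rose by 1.60 ± 0.11 by day 14, a fold of 3.04 (adjusted p = 5.49e-08 by limma), and the differences at day 9 (0.77 ± 0.11) and from day 9 to day 14 (0.83 ± 0.11) were not called. The other probe gave 2.57, 2.39, 2.61 and 2.40 in mESC, 2.47, 2.83, 2.73 and 2.71 at day 9 and 3.34, 3.41, 3.35 and 3.53 at day 14. Its differences were smaller, at 0.19, 0.91 and 0.72, and its mESC and day 9 arrays overlapped. The day 14 call of Junb therefore rests on the first of these probes, and with normexp background correction the difference was 0.77 and not called. With no scaling the difference from day 9 to day 14 was 1.03 and called.

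Atf3, a partner of JUN that is a usual target of stress signalling, changed least. It was at 0.42, 0.60, 0.58 and 0.72 in mESC, at 0.35, 0.60, 0.30 and 0.33 at day 9, and at 0.36, 0.27, 0.34 and 0.35 at day 14. The day 9 arrays overlapped both other groups, and the mESC and day 14 arrays did not overlap. Against mESC it differed by -0.19 (95% interval -0.36 to -0.02) at day 9 and by -0.25 (-0.42 to -0.08) at day 14. With no scaling their signs turned, to 0.01 and 0.14. These intervals leave out a change of the size that Fos or Junb showed at day 14.

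**Figure D2:**
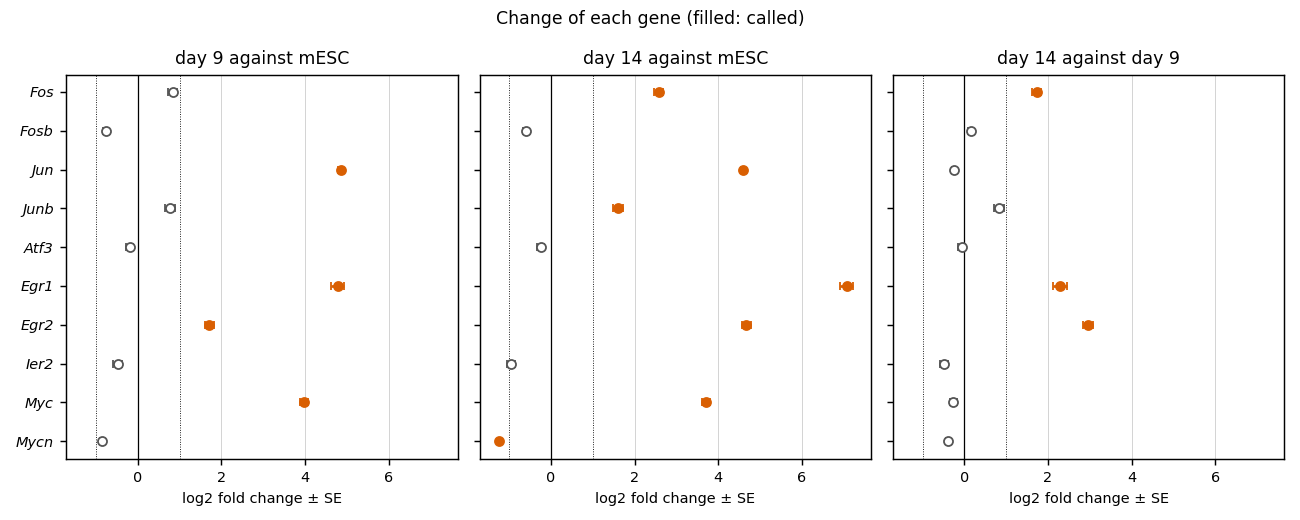
Log2 fold change with its SE (x axis) of each of the 10 genes in 3 comparisons of 4 arrays with 4; filled points were called, and dotted lines mark a change of 1 either way. Egr1 had the largest change by day 14, at 7.07, and Fos, Egr1 and Egr2 are the filled points from day 9 to day 14.

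Egr1, the zinc finger factor induced through ERK and serum response factor, was at -4.58, -4.25, -4.03 and -4.07 in mESC. It was at 0.10, 0.83, 0.63 and 0.63 at day 9 and at 2.69, 2.94, 2.72 and 2.98 at day 14. The 3 groups were far apart and stood in the order mESC, day 9, day 14, and the day 9 array at 0.10 was the farthest from its group. Egr1 rose by 4.78 ± 0.16 by day 9 (SE, n = 4 each), a fold of 27.5 (adjusted p = 1.26e-10 by limma). By day 14 it had risen by 7.07 ± 0.16, a fold of 134 (adjusted p = 4.31e-12 by limma), and 207 of the 20875 genes rose by more. The rise after day 9 alone was 2.29 ± 0.16, a fold of 4.88 (adjusted p = 4.25e-07 by limma). With normexp correction the 3 changes were 2.79, 4.84 and 2.04, all called.

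Egr2, the related factor known from Schwann cells, hindbrain and myeloid cells, came up later. Its mESC values, -5.37, -5.24, -4.95 and -5.46, were well above background on 1 of 4 arrays and in 12 of 40 spots, so they lie at the limit of what the probe could measure and give no exact size against mESC. It was at -3.78, -3.35, -3.55 and -3.50 at day 9 and at -0.48, -0.60, -0.58 and -0.68 at day 14, above background on every array. With the lowest signal well above background put in place of dimmer mESC values, Egr2 was 3.21-fold higher at day 9 and 25.0-fold higher at day 14. These folds hold for this probe and background correction and are not strict lower bounds. The fit on the signals as measured gave 1.71 ± 0.11 and 4.67 ± 0.11 on the log2 scale and called both (adjusted p = 5.34e-08 and 7.22e-12 by limma). From day 9 to day 14, where every array measured it, Egr2 rose by 2.96 ± 0.11, a fold of 7.78 (adjusted p = 3.45e-09 by limma). With normexp correction the 3 values were 0.28, 2.04 and 1.76, and the day 9 call was lost. The SD among its 10 spots was 0.23 to 0.70 within an mESC array and 0.04 to 0.07 at day 14.

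The NAB proteins bind EGR factors and limit them, and they are themselves EGR targets. Both were picked from their list after their values were seen. Nab1 rose by 2.69 ± 0.07 by day 9 and 2.77 ± 0.07 by day 14. Nab2 was 0.31 ± 0.08 higher at day 9, which was not called, rose by 1.39 ± 0.08 by day 14 and by 1.09 ± 0.08 from day 9 to day 14. That last call was lost with normexp correction (0.85) and with median scaling (0.90). Egr4, an EGR family member, was at least 2.60-fold lower at day 9 and at least 3.16-fold lower at day 14 than in mESC, since it was above background in mESC on 4 arrays and on none later. Each such bound sets the mean of the brighter group against the lowest signal well above background on the dimmer arrays, or the dim probe's own value where that was higher. A bound of this kind, here and below, holds only for the probe and background correction used. Another probe or correction can give a smaller change. With normexp correction the Egr4 differences were -0.52 and -0.05 and not called.

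Ier2, a small nuclear protein whose mRNA is induced with FOS and EGR1 by serum, did not share their rise. It was at 3.37, 3.47, 3.43 and 3.53 in mESC, 2.69, 3.14, 3.09 and 2.96 at day 9, and 2.36, 2.55, 2.40 and 2.66 at day 14. The groups did not overlap, and they stood in the order mESC, day 9, day 14 from high to low. The difference at day 9 was -0.48 ± 0.10 (95% interval -0.70 to -0.26), and at day 14 it was -0.96 ± 0.10 (-1.18 to -0.74; adjusted p = 2.34e-06 by limma), just short of a call. It was called at -1.08 with normexp correction, at -1.28 with median scaling and at -1.01 without the 4th day 14 array.

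From day 9 to day 14, when Fos, Egr1 and Egr2 rose, markers of other cell types moved too. All 10 macrophage markers were called higher, and their summed level went from 0.56 to 0.73 at day 9 to 23.07 to 28.78 at day 14. Adgre1, C1qa, C1qc and Aif1, which mark macrophages, were not above background on any day 9 array and were above it at day 14. These genes and Ptprc passed the filter on dim probes only through day 14, so the filter favoured a call of higher for them. The 8 fibroblast markers summed to 236.1 to 417.0 at day 9 and 535.1 to 590.8 at day 14, with 3 called higher and 1 lower. The 7 tested markers of endoderm and liver summed to 39.81 to 66.69 at day 9 and 192.5 to 207.6 at day 14, with 3 called higher and 1 lower. Those higher were Alb (8.53), Fgb (2.05) and Afp (1.62), and Apob was lower (-2.26). The median log2 change of the 7 was -0.19, since a linear sum follows its brightest genes. Of 5 endothelial markers 4 were called lower. Their part in the rise of Fos, Egr1 and Egr2 was not tested. In RNA from a whole culture, more cells of a type and more RNA per cell cannot be told apart.

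**Figure D3:**
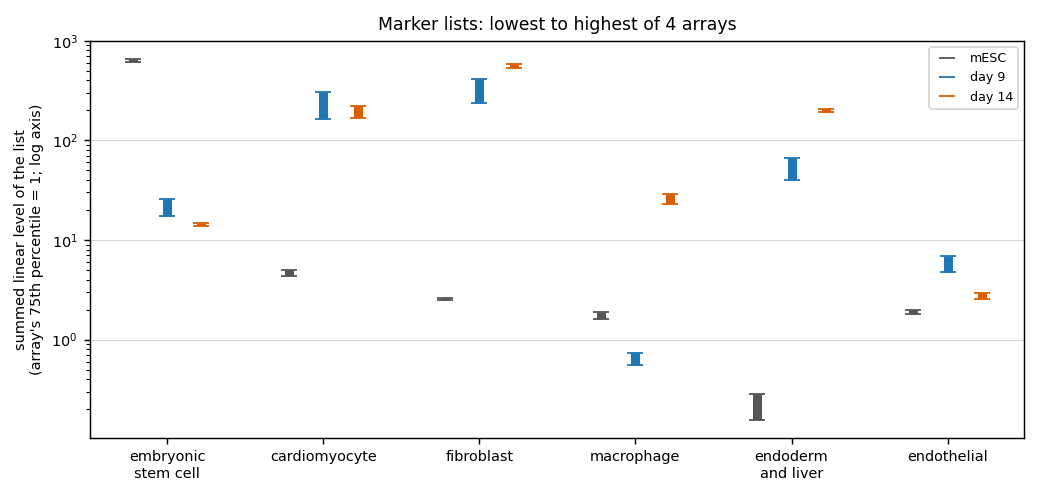
Summed linear level of the markers of 6 cell types (y axis, log scale, the array's 75th percentile set to 1), from the lowest to the highest of the 4 arrays of each group. The macrophage sum was at most 0.73 at day 9 and at least 23.07 at day 14, and the stem cell sum was highest in mESC.

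Myc and Mycn moved in opposite directions. Myc, read by the probe with 10 spots, was at -3.28, -3.05, -3.30 and -2.94 in mESC, at 0.72, 0.94, 0.72 and 0.95 at day 9 and at 0.49, 0.56, 0.53 and 0.70 at day 14. Every later array was above every mESC array, and the day 14 arrays lay below the day 9 arrays with no overlap. Myc rose by 3.98 ± 0.09 by day 9 (SE, n = 4 each), a fold of 15.7 (adjusted p = 6.56e-12 by limma), and by 3.71 ± 0.09 by day 14, a fold of 13.1 (adjusted p = 9.02e-12 by limma). These rises were 2.76 and 2.47 with normexp correction and 3.34 and 3.05 as the mean over its probes, and called in each. The difference of day 14 from day 9, -0.26 (95% interval -0.47 to -0.06), was not called. A second Myc probe gave 3.94 and 3.71 for the changes from mESC. The third, which was well above background on 2 of 4 mESC arrays, gave 2.10 and 1.74, so the direction was shared by the 3 probes and the size by 2 of them.

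Mycn was at 2.63, 2.70, 2.59 and 2.61 in mESC, at 1.81, 1.71, 1.71 and 1.85 at day 9 and at 1.39, 1.38, 1.40 and 1.37 at day 14. The groups did not overlap and stood in the order mESC, day 9, day 14 from high to low. At day 9 Mycn was lower by -0.86 ± 0.04 on the log2 scale, which was not called. It fell by 1.24 on the log2 scale (SE 0.04) by day 14, a fold of 2.37 (adjusted p = 1.52e-10 by limma). The other Mycn probe gave -0.83 and -1.24. The day 14 call was lost with no scaling between arrays, at -0.85.

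Setting Myc beside Mycn on the same array removes the scaling between arrays. Only the change of this difference is read, since probes differ in how brightly they report an mRNA. Relative to the mESC mean, the log2 difference of Myc minus Mycn was -0.13, 0.02, -0.12 and 0.23 on the mESC arrays, 4.68, 5.00, 4.79 and 4.88 at day 9, and 4.87, 4.95, 4.90 and 5.11 at day 14. It changed by 4.83 by day 9 and by 4.96 by day 14, so the ratio of Myc to Mycn rose 28.5-fold and 31.1-fold with these probes. On the log2 scale the 2 changes were 3.55 and 3.67 with normexp correction and 4.18 and 4.30 as the mean over probes. They were 2.93 to 4.81 and 2.98 to 4.95 over the 5 other pairs of probes, lowest with the third Myc probe. The exact two-sided permutation test gave p = 0.0286 for each, the smallest p that 4 arrays against 4 allow, and 0.0429 after adjustment over the 3 comparisons. From day 9 to day 14 the change was 0.12, and the same exact permutation test gave p = 0.257, also after adjustment.

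**Figure D4:**
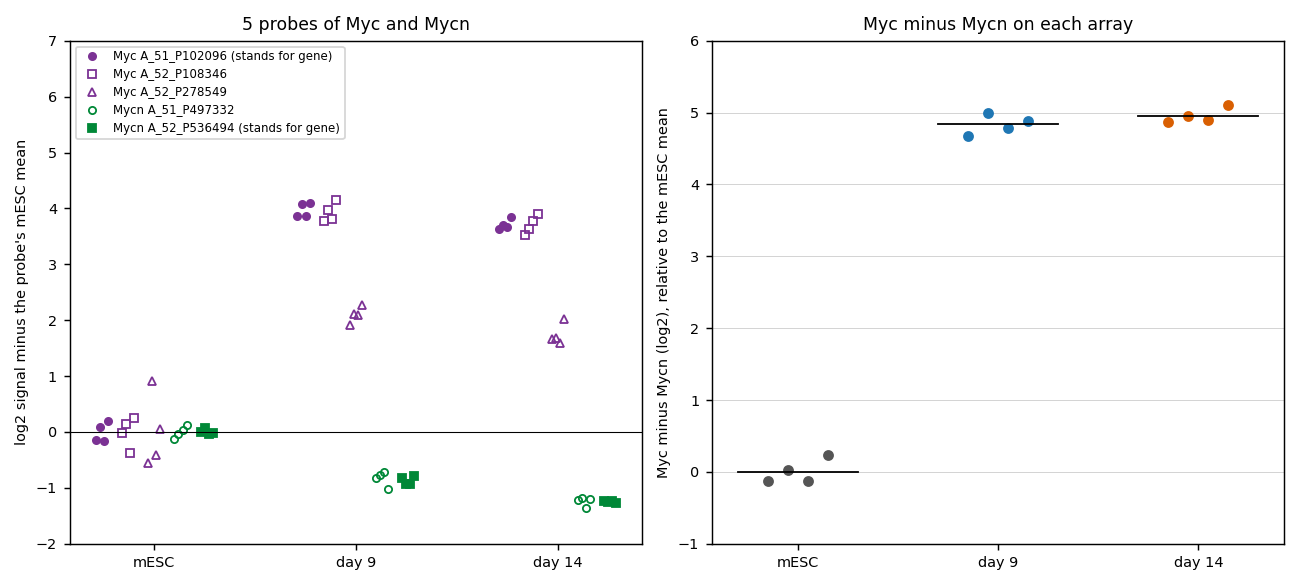
Left, log2 signal of the 3 Myc and 2 Mycn probes on each array minus that probe's mESC mean (y axis), with filled symbols for the probe that stands for the gene; right, Myc minus Mycn on each array relative to its mESC mean, with group means as lines. The Myc probes are above 0 and the Mycn probes below 0 at day 9 and day 14, and the difference is between 4.68 and 5.11 on the 8 later arrays.

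The other genes of these pathways were read from lists, whose members were chosen by function, with earlier results of these data known. Their counts stand beside 41.0%, 46.8% and 13.8% of all genes called in the 3 comparisons. Of 10 AP-1 partners, 9 were tested. At day 9, 3 were called higher and 1 lower, at day 14 again 3 and 1, and 1 was higher at day 14 than at day 9. The share called against mESC, 4 of 9, was near that of all genes. Fosl2, which codes for the FOS relative FRA2, was not above background on any mESC array. By the bound set out above, the probe that stands for it was at least 17.8-fold higher at day 9 and at least 35.3-fold higher at day 14. The other Fosl2 probe gave log2 changes of 1.19 and 1.72, and with normexp correction the first gave 1.61 and 2.40. These are smaller than the bound, so the size of the change depends on the probe and the correction. Batf and Batf3, leucine zipper factors of immune cells, rose by 1.11 ± 0.13 and 1.10 ± 0.07 by day 9 and by 1.31 ± 0.13 and 1.83 ± 0.07 by day 14. The calls of Batf and Batf3 at day 9 were lost with quantile normalization (0.98 and 1.00), with median scaling (0.98 and 0.97) and with normexp correction (0.54 and 0.67), and that of Batf at day 14 with median scaling (0.99) and normexp (0.86). Batf2 was well above background on 1 of 4 day 9 arrays and, by the same kind of bound, was at least 16.6-fold lower at day 9 than in mESC. By day 14, above background on every array, it fell by 3.56 on the log2 scale (SE 0.35). With normexp correction its day 9 and day 14 changes were -1.67 and -1.11, both called. Its rise from day 9 to day 14 was at least 1.41-fold, and the call was lost without the first day 9 array and with normexp correction. Jund, an AP-1 subunit present in most cells, differed from mESC by 0.11 ± 0.07 at day 9 and -0.26 ± 0.07 at day 14 and was not called.

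Among 13 tested of 15 other early response transcription factors, 4 were called higher and 5 lower at day 9, and 4 higher and 4 lower at day 14. Nr4a2, an orphan nuclear receptor, rose by 2.20 ± 0.08 and 2.51 ± 0.08, or by 1.23 and 1.5 with normexp correction. Cebpd, which is induced in inflammation, rose by 1.83 ± 0.12 by day 9 and by 3.25 ± 0.12 by day 14, including 1.42 ± 0.12 from day 9. Klf4, also a pluripotency factor, fell (log2 changes of -3.85 and -3.16, SE 0.07 each), and Klf10 fell (log2 changes of -1.98 and -1.46, SE 0.04 each). Between the days Cebpb (1.13 ± 0.06), Cebpd and Ier3 (1.03 ± 0.12) rose and none was called lower by limma (1 at an unadjusted p below 0.05). The calls of Cebpb and Ier3 in that comparison were lost with median scaling, at 0.94 and 0.84, and with normexp correction, at 0.94 and 0.85.

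The list of early response signalling and feedback genes had 30 of 31 members tested. At day 9, 9 were called higher and 7 lower, and at day 14, 15 higher and 6 lower, with a median of 0.93 beside -0.19 over all genes. The day 14 medians were 0.40 beside 0.10 with normexp correction, 0.61 beside -0.51 with median scaling and 1.32 beside 0.21 with no scaling. Dusp6, a phosphatase that acts on ERK, rose by 3.58 ± 0.12 and 3.56 ± 0.12. Dusp1, a nuclear phosphatase of the MAP kinases that was picked after its values were seen, fell (log2 changes of -1.88 and -2.30, SE 0.07 each). Ccn1, a matrix protein induced by serum and stretch, rose by 2.53 ± 0.11 and 2.93 ± 0.11. Sgk1, a kinase induced by serum and glucocorticoid, fell (log2 changes of -3.99 and -3.86, SE 0.08 each), and Arc fell (log2 changes of -3.17 and -2.87, SE 0.09 each). Ptgs2, the inducible prostaglandin synthase, was not above background in mESC and was at least 7.40-fold higher at day 9 and at least 3.68-fold higher at day 14, both lost with normexp correction (0.81 and 0.69). After day 9, 4 genes of this list rose and 2 fell. Gadd45b rose by 2.12 ± 0.16, and Tnfaip3 and Nfkbiz, feedback genes of NF-kB signalling, by 1.27 ± 0.10 and 1.14 ± 0.09. The calls of Tnfaip3 and Nfkbiz were lost with normexp correction (0.99 and 0.88), and that of Nfkbiz with median scaling (0.95). Nab2, given above, was the other gene that rose, and Dusp4 (-1.41 ± 0.19) and Ptgs2 (-1.01 ± 0.15) fell. The fall of Ptgs2 was lost with no scaling (-0.81) and without the first day 9 array (-0.94), among others, and that of Dusp4 with normexp correction (-0.85). In that comparison 2 of the list were called higher and 3 lower with median scaling, and 1 and none with normexp correction, by limma.

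Of 20 tested genes in a list of 22 upstream kinases and serum response factor partners, 3 were called higher and 2 lower at day 9, 2 and 2 at day 14, and none between the days by limma, where 3 were higher and 14 lower at an unadjusted p below 0.05 and the median was -0.26 beside -0.09 over all genes. Elk3, a partner of serum response factor, rose by 2.59 ± 0.08 and 2.77 ± 0.08. Srf itself was 1.30 ± 0.06 higher at day 9, which was called, and 0.80 ± 0.06 higher at day 14, which was called only with no scaling (1.20). Map2k1, the ERK kinase, fell (log2 changes of -1.14 and -1.20, SE 0.08 each), and these calls were lost with quantile normalization (-0.95 and -0.96) and with no scaling (-0.95 and -0.81). Rps6ka1 and Rps6ka3, kinases downstream of ERK that phosphorylate serum response factor and FOS, moved apart, with log2 changes of -1.82 and -2.58 for Rps6ka1 (SE 0.08 each; -1.87 at day 14 as the mean over probes) and of 1.81 and 1.5 for Rps6ka3 (SE 0.05 each). The other Rps6ka3 probe gave -0.24 and -0.94, so the direction of that gene depends on the probe.

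AP-1 targets were mostly higher. Of 12 tested among 16, 8 were called higher and 1 lower at day 9, and 9 higher and 1 lower at day 14, with medians of 2.64 and 3.17. With normexp correction the medians were 1.10 and 2.21. Plau, Ccl2 and Lox were above background on no mESC array. They were tested only through the later groups, so the filter favoured a call of higher for them. The gene called lower was Hmox1, heme oxygenase (-1.19 and -1.21, SE 0.09 each), picked after its values were seen, and with quantile normalization and with no scaling its call was lost at both days. Mmp14, a membrane matrix protease, rose by 2.99 ± 0.07 and 3.76 ± 0.07. Lox, the collagen crosslinking enzyme, was at least 8.84-fold higher at day 9 and at least 193-fold higher at day 14, and Ccl2, a monocyte chemokine, at least 24.6-fold and at least 105-fold higher. With normexp correction the log2 changes were 1.13 and 4.73 for Lox and 1.99 and 3.72 for Ccl2. The day 9 call of Plau was lost with normexp correction (0.19), and its other probe gave -0.38 at day 9. After day 9, 4 of the 12 rose and none was called lower by limma (2 at an unadjusted p below 0.05). Those that rose were Lox (4.45 ± 0.44), Plau (4.28 ± 0.15), Mmp9 (4.20 ± 0.23) and Ccl2 (2.09 ± 0.15). Mmp9 was above background on 3 of 4 day 9 arrays and was at least 18.3-fold higher at day 14. The other Plau probe gave 3.65, and with normexp correction Lox, Plau and Mmp9 gave 3.59, 2.36 and 2.17. All 10 macrophage markers and 3 of 8 fibroblast markers, given above, were called higher over the same days, and their part in these changes was not tested.

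In the Myc network all 16 genes were tested, with 2 called higher and 4 lower at day 9, and 2 higher and 5 lower at day 14, shares near those of all genes. Max, the obligate partner of MYC, was -0.29 ± 0.06 and -0.58 ± 0.06 from mESC and was not called. Mxd4, a MAX partner that opposes MYC, rose by 2.60 ± 0.11 and 3.20 ± 0.11, or by 1.77 and 2.23 with normexp correction. Mxd3 of the same family was 0.75 ± 0.12 higher at day 9, not called, and rose by 1.90 ± 0.12 by day 14. It was the 1 gene of the list called from day 9 to day 14, at 1.15 ± 0.12. That call was lost with normexp correction (0.92) and with median scaling (0.96). Mxd1, another of that family, was called higher at day 9 (1.30 ± 0.06). That call was lost with normexp correction (0.96) and as the mean over probes (0.90), and the other Mxd1 probe gave 0.50. Fbxw7, which marks MYC for degradation, was called lower at day 14, with a change at the size limit itself, a call lost with quantile normalization (-0.96), normexp correction (-0.92) and no scaling (-0.61), among others. Mlxipl, the glucose-responsive factor, fell (log2 changes of -4.18 and -3.49, SE 0.10 each). With normexp correction the Mlxipl values were -2.99 and -2.40. Mycl, the third MYC paralogue, fell (log2 changes of -1.70 and -1.71, SE 0.20 each), and the call at day 14 was lost with normexp correction (-0.86). Mga fell (log2 changes of -1.36 and -1.77, SE 0.07 each), and Ruvbl2, an ATPase of chromatin complexes that MYC recruits, fell too (-1.48 and -1.88, SE 0.06 each).

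Most of the list of known MYC targets was lower at both days. Of 23 tested among 24, 1 was called higher and 14 lower at day 9, and 1 higher and 15 lower at day 14, with medians of -1.13 and -1.61. The number called lower was 9 and 13 with quantile normalization and 14 and 18 with median scaling, and the median was below 0 in every scaling tried. Among those that fell, Dkc1, the pseudouridine synthase, fell (log2 changes of -2.92 and -3.23, SE 0.06 each). Mybbp1a, a nucleolar protein, fell (log2 changes of -1.92 and -2.48, SE 0.07 each), Bop1 fell (-1.65 and -2.40, SE 0.04 each), and so did Shmt2, the mitochondrial serine enzyme (-1.90 and -2.31, SE 0.08 each). The only gene of the list called higher was Ccnd2, cyclin D2, which rose by 6.34 ± 0.08 and 6.62 ± 0.08, or by 5.15 and 5.31 with normexp correction. At an unadjusted limma p below 0.05, 3 were higher and 20 lower at day 9, and 1 higher and 20 lower at day 14. Pes1, counted as lower and picked after its values were seen, depends on the probe. Its other probe gave 1.43 and 0.80, and as the mean over probes its calls were lost (0.08 and -0.42). None of the list was called between day 9 and day 14 by limma, where 1 was higher and 19 lower at an unadjusted p below 0.05 and the median was -0.42.

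Stress response genes, several of which share inducers with Atf3, were lower or not called. All 15 were tested, and 9 were called lower at day 9 and 10 at day 14, with none higher by limma and medians of -1.04 and -1.42. At an unadjusted p below 0.05, 2 were higher and 13 lower at each day, and 1 was higher and 8 lower at day 14 than at day 9, where none was called. Asns, which makes asparagine and is an ATF4 target, fell (log2 changes of -2.02 and -2.67, SE 0.11 each), as did Chac1 (-1.72 and -1.94, SE 0.16 each) and Trib3 (-1.60 and -1.81, SE 0.13 each). Hspb1, a small heat shock protein, fell (log2 changes of -2.10 and -2.18, SE 0.05 each). The number called lower at day 14 was 7 with quantile normalization and 9 with no scaling.

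**Figure D5:**
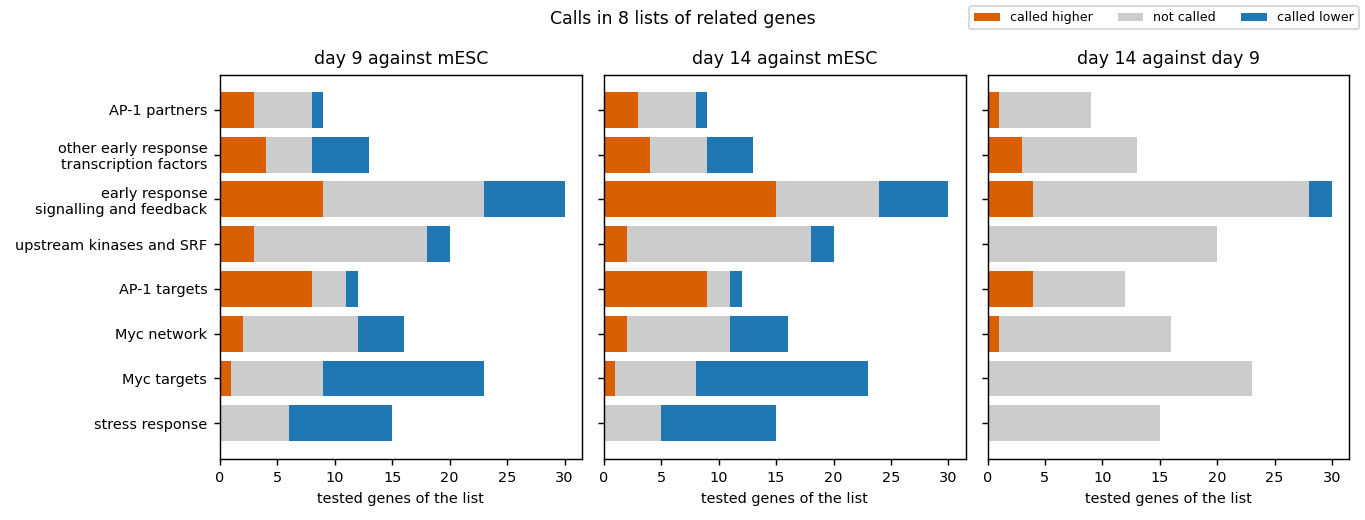
Number of tested genes (x axis) called higher, not called and called lower in 8 lists of related genes (rows) in 3 comparisons. The Myc targets had 14 and 15 genes called lower against mESC, the AP-1 targets 8 and 9 called higher, and none of the upstream kinases, Myc targets or stress genes was called between day 9 and day 14.

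The genes whose course was most like that of each member were found as the smallest root mean square difference of log2 values, each centred on its mean over the 12 arrays, among 15552 named genes. Closest to Fos were Tmem86a (0.11), Apol9b (0.13) and Crybg1 (0.16), whose changes by day 14 were 2.54, 2.67 and 2.39. Closest to Jun were Dbn1 (0.08), the actin-binding drebrin, Pxdn (0.09), a matrix peroxidase, and Ndn (0.11). Junb was nearest to Mapre3 (0.12), Narf (0.12) and Trmt2b (0.13). Rgs2 (0.22), a regulator of G protein signalling, Mgst1 (0.26) and Trdn (0.27), the triadin of heart and skeletal muscle, came closest to Egr1. For Egr2 these were Krt7 (0.18), a keratin, Itga11 (0.26), a collagen receptor, and Cd200r1 (0.26), a receptor of myeloid cells. Myc was most like Cd44 (0.11), the hyaluronan receptor, which is also in the list of AP-1 targets and rose by 4.06 and 3.71 (2.83 and 2.47 with normexp correction), then Ssbp2 (0.14) and Cplx2 (0.14). Mycn was most like Prdx1 (0.03), Dnajc8 (0.04) and Rbbp8 (0.04). Of the genes not called, Fosb was nearest to Tmem230, Kazn and Zfp72 (0.05 to 0.06), Atf3 to Pus7l, Arl3 and Vps37a (0.08 to 0.09), and Ier2 to Cycs, Timm10 and Lmntd2 (0.07 to 0.09).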

How the data were processed

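Per the file headers, the authors extracted each array with Agilent Feature Extraction 12, and the deposited gProcessedSignal is a background-subtracted intensity on a linear scale, not scaled between arrays. Spot and background medians, also deposited, are intensities without correction. The deposited series value table held intensities that equalled the processed signal at all 540216 values compared.
Control spots and outlier-flagged spots were left out, no non-control spot was saturated, log2 signals were centred on each array's 75th percentile and spots of a probe were averaged. Probes were named by accession through RefSeq (28223 of 41174). A probe was tested if well above background on at least 3 of 4 arrays of a group, and the tested probe with the highest mean over all arrays stood for a gene. All 12 arrays entered 1 fit of group means in limma 3.58.1 (R 4.3.3), with Benjamini-Hochberg adjustment over 20875 genes. The procedure was tested on simulated data. Myc minus Mycn was compared by an exact permutation test (SciPy). The number of arrays limits the precision.
The members and lists were chosen with earlier results of these data known. All 10 members are named; of other genes, up to 4 called members of each list with the largest change in a comparison, any AP-1 partner or Myc network gene, and the 3 genes nearest each member. Alternatives were another background correction, scalings, filters, probe rules, fits, a replicate block and each array left out.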

Additional observations from a re-analysis of the deposited data

How the results depend on the processing

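The count of genes called moved by more than 1.5 times under 3 alternatives. From 8566 at day 9, 9772 at day 14 and 2879 between the days, it went to 4753, 5849 and 1233 with normexp background correction, to 5481, 6420 and 1303 with probes above background on all 12 arrays, and to 17398, 17764 and 13223 with no minimum fold change. The filter on all 12 arrays also left fewer genes to test, 15894 in place of 20875. Without that minimum 10 of the 10 genes were called at day 9 and 9 between the days, and under the other alternatives 3 to 5 and 2 to 4 were. Relative to the main scaling, the median of all genes shifted by -0.13, -0.32 and -0.19 in the 3 comparisons with median scaling and by 0.19, 0.39 and 0.20 with no scaling; the changes of single genes shift by as much.

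The sign turned for Atf3 with no scaling (0.01, 0.14 and 0.14 in the 3 comparisons) and, from day 9 to day 14, without the 2nd day 9 array (0.00, within a range of -0.10 to 0.00 over single arrays left out), and for Fosb from day 9 to day 14 with quantile normalization (-0.03) and median scaling (-0.04). The calls that changed for Fos, Junb, Egr2, Ier2 and Mycn stand beside their values, and apart from those and from the setting with no minimum fold change no call of the 10 genes changed. The cause of these changes was not tested. Egr2 was dropped by the filter on all 12 arrays.

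The change of Myc minus Mycn with 1 array left out was 4.78 to 4.91 at day 9 and 4.91 to 5.03 at day 14, where the exact permutation test of 3 arrays against 4 cannot go below p = 0.0571. Whether the replicate numbers pair the samples is not known. Deviations from group means correlated at -0.0749 to 0.184 for same-numbered arrays and at -0.205 to 0.149 for differently numbered ones. With 4 arrays in each group this cannot settle it. A replicate block gave 8565, 9774 and 2875 genes called and 4, 7 and 3 of the 10. Signal over background was limiting in mESC for Egr2 and 1 Myc probe, which were above it on 1 and 2 of 4 arrays.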
